A study of Mus musculus with 12 samples.

Results

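The small RNA files of this mouse study assign each read to a class, and the reads described here are those assigned to messenger RNA that do not look like piRNAs. A read belonged if its matched entry was an mRNA and if it was shorter than 24 nt, longer than 32 nt, or began with a base other than T. In total 998673 of 3488508 listed sequences met this rule, counted per library, and they carried 1834922 of 127408620 reads. These sequences were 882603 distinct ones. The rule uses length and first base, so values of these 2 features describe the members and support nothing. A further 508726 sequences with 1312270 reads were assigned to mRNA and had both piRNA features (24 to 32 nt with a first T).

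Wild-type (WT) C57BL/6 mice were compared with C57BL/6 mice labelled Gpx5-/- (KO). Gpx5 encodes a glutathione peroxidase that the epididymis secretes onto sperm. At 13 months each genotype gave small RNA libraries (18 to 40 nt) of the testis and of the caput, corpus and cauda, the 3 stretches of the epididymal duct, plus a transcriptome of the caput. At 2 months only caput small RNAs were read. Per the labels' protocols the 13-month tissue came from 7 WT and 7 KO animals and was pooled, caput and cauda were punctured so that sperm could leave, and testis and corpus were taken whole. The labels do not say how many animals the 2-month libraries hold or which part of Gpx5 was removed. With 1 library a group there is no replicate check and no test of genotype, and every interval reflects counting error alone.

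Short pieces of mRNA reach a small RNA library by several routes. Any transcript that is cut or decays can leave fragments, and these lie on the coding strand and match the transcript without mismatch. In male germ cells long precursor transcripts, among them mRNAs, are cut into piRNAs, small RNAs that guard the germline and that mostly begin with U, which is read as T. Epididymal cells secrete proteins onto sperm in transit, each stretch of the duct with its own set, and their most abundant mRNAs encode lipocalins, defensins, protease inhibitors and antioxidant enzymes.

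Named fragments are shown first, because the results turn on the kinds of sequence that the mRNA label covers. All are written 5′ to 3′ as the read, with T for U, and gene names and chromosomes come from the RefSeq tables. The first set comes from genes of secreted or surface proteins of the epididymis: Gpx5 (chromosome 13), the retinoic acid carrier Lcn5 (chromosome 2), the defensin-like Spag11b (chromosome 8), the sperm-coating protein gene Crisp1 (chromosome 17) and the surface antigen gene Cd52 (chromosome 4). They lie on the plus strand of their transcript with no mismatch.
Gpx5 fragment 1: atggactctacctccccaagtcacccct
Gpx5 fragment 2: aaatggactctacctccccaagtcacccct
Gpx5 fragment 3: atgccttgtcagttcctgaggtct
Gpx5 fragment 4: gaaactgtgtgtctcctgagacaaatgcct
Lcn5 fragment: accttctggctctgaccaccacc
Spag11b fragment: actgcctgaagtcccctctgcagcc
Crisp1 fragment: atcctgtgaacatgaacttcttaaaaaagg
Cd52 fragment: agcccaggaagatttcaggatgaagagct
Gpx5 fragments 1 and 2 share their 3′ end and differ by 2 bases at the 5′ end. Both were absent from KO caput at 13 months, where WT caput listed 22 and 14 reads. Fragments 3 and 4 had 9 and 7 reads in WT and 0 in KO. The Lcn5 fragment had 9 reads in WT and 14 in KO caput, the Spag11b fragment 4 and 5, and in cauda the Crisp1 fragment had 23 and 6 and the Cd52 fragment 7 and 2.

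The second set comes from genes whose fragments were abundant in testis: Piwil2 (chromosome 14), which encodes a piRNA-binding protein of germ cells, Nemp1 (chromosome 10), a nuclear envelope protein gene, and the little characterised genes Gm5878 (chromosome 6) and 1700006A11Rik (chromosome 3). All 4 are 29 or 30 nt long and begin with a base other than T.
Piwil2 fragment: gtgaaagacatgtagaaaaaccagcgtagg
Nemp1 fragment: caggaactccgagaattttgtaacagtcc
Gm5878 fragment: caggacatctttctttgtcaatcatggcct
1700006A11Rik fragment: accagacacagagagaatattcagaacatt
The Piwil2 fragment had 244 reads in WT and 431 in KO testis, 74 in WT caput and 0 in KO caput. The Nemp1 fragment had 326 and 380 reads in testis, 103 in WT caput and 2 in KO caput. The Gm5878 fragment had 63 reads in WT and 43 in KO testis and the 1700006A11Rik fragment 63 and 106, each with 22 reads in WT caput and 0 in KO caput.

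The third set was labelled mRNA, and 4 of its 6 sequences carry features of other RNAs: a CCA end for Washc1 and Fgg, and 16 nt shared with tRNA or piRNA reads for Rab8b and Cdc42ep2. For Pak4 and Zfp131 only mismatches to the entry, and for Pak4 the minus strand, set them apart. Capitals mark a 3′ CCA, which is the end that mature tRNAs carry. Washc1 (chromosome 17), Fgg (chromosome 3), Rab8b (chromosome 9), Pak4 (chromosome 7), Zfp131 (chromosome 13) and Cdc42ep2 (chromosome 19) are the genes of the listed entries, and most of these matches needed 1 or 2 mismatches or the minus strand.
Washc1 entry: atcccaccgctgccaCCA
Fgg entry: tccccggcatctccaCCA
Rab8b entry: agcattggtggttcagtgg
Pak4 entry: tccaccacgttcccgtgg
Zfp131 entry: aagaaagattgcaagaact
Cdc42ep2 entry: caccttgggctcactttgatcacatctc
The Washc1 sequence was read in all 10 libraries, from 16 reads in WT caput at 2 months to 4444 in WT corpus. The Rab8b sequence, which shares at least 16 nt with tRNA reads, had 3747 and 2355 reads in WT and KO cauda against 15 and 12 in testis. The Cdc42ep2 sequence shares at least 16 nt with reads listed as piRNA and had 1892 and 2695 reads in testis, 642 in WT caput and 9 in KO caput.

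The fourth set matches microRNA hairpins. Capitals in the reads mark the mature miRNA as RefSeq gives it, and capitals in the mature sequences mark the seed, bases 2 to 8 of the mature form.
Rtl1 antisense read: tTCGGATCCGTCTGAGCTTGGCT
mmu-miR-127-3p, RefSeq: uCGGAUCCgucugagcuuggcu
miR-140 hairpin read: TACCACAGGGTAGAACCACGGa
mmu-miR-140-3p, RefSeq: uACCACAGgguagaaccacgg
Vmp1 read: ctgtaccaccttgtcgga
The first was listed on the minus strand of Rtl1 (chromosome 12), an imprinted retrotransposon-derived gene whose antisense transcript carries the miR-127 hairpin. It had 3804 reads in KO and 160 in WT caput, against 1503 in WT and 23 in KO testis. The Vmp1 read (chromosome 11) shares 16 nt or more with the Mir21a hairpin, outside either mature form, and had 415 reads in WT and 492 in KO caput. The 2 mature forms have different seeds. Reads sharing 16 nt with a RefSeq hairpin were 1.12% to 7.63% of the members over the 10 libraries. A single sequence at 0 or near 0 can mean that it had no line in that library's file, because the 13-month files lack some ranks.

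Members were most frequent in testis and scarce in young caput. They made up 3.89% of classified reads in WT and 4.38% in KO testis. In 13-month caput they made up 1.87% (1.87 to 1.88) in WT and 0.7996% (0.796 to 0.804) in KO. Of the 5 pairs this one had the widest gap: the WT share was 2.34 times the KO share (2.33 to 2.36), a log2 KO over WT ratio of -1.23. Corpus had 0.953% in WT and 1.06% in KO (log2 0.16), cauda 0.832% and 1.32% (log2 0.67), and caput at 2 months 0.0871% and 0.0969% (log2 0.15). In whole tissue, fewer cells of a type and less RNA per cell cannot be told apart.

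The reads with piRNA features were set beside the members because both carry the mRNA label. In 13-month caput they fell from 1.57% in WT to 0.0444% in KO, a 35.4-fold difference against 2.34-fold for the members. Members were 54.3% of the mRNA class in WT caput and 94.7% in KO caput. In testis they were 40.0% and 44.0%, and in corpus, cauda and young caput 90.7% to 95.9%. The depth behind these shares was 3855476 to 29049669 classified reads per library, and the young caput pair rests on 3359 and 7436 member reads.

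**Figure D1:**
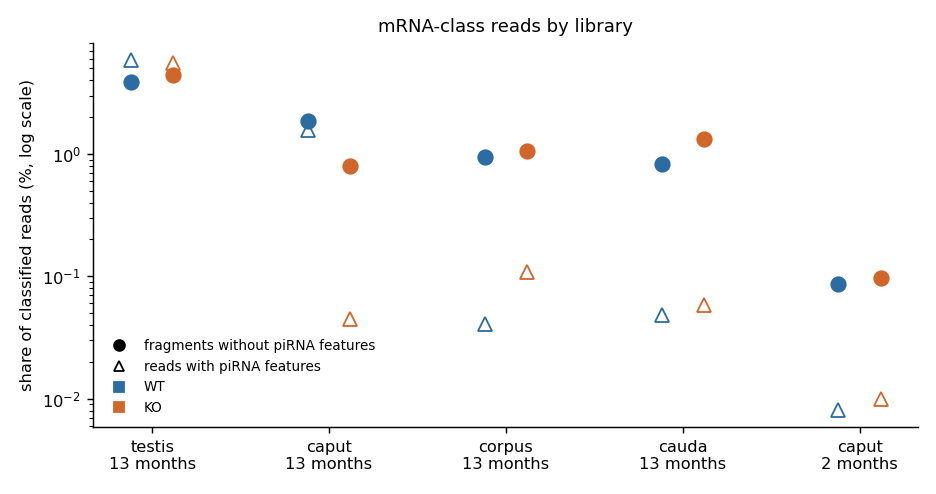
Share of classified reads, in percent on a log axis, of mRNA fragments without piRNA features (filled circles) and of mRNA reads with piRNA features (open triangles), for WT (blue) and KO (orange) in each of the 5 pairs. In 13-month caput the members were at 1.87% in WT and 0.7996% in KO, and the reads with piRNA features at 1.57% and 0.0444%.

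The KO caput differed from WT in which lengths were present. In testis the members had 2 length ranges, one at 18 to 20 nt (23.97% of members in WT, 21.2% in KO) and one at 29 to 31 nt (32.6% and 37.1%). WT caput had both as well, with 33.4% at 18 to 20 nt and 19.6% at 29 to 31 nt. In KO caput 46.8% were 18 to 20 nt long and 8.03% were 29 to 31 nt long. The 13-month caput log2 ratio was -0.76 for members under 24 nt, -1.998 for members of 24 to 32 nt with another first base, and -1.38 for members over 32 nt.

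Corpus and cauda were richer in the shortest reads than testis. Of the members 78.9% in WT and 76.9% in KO corpus were under 24 nt, against 33.7% and 28.8% in testis. In cauda 59.8% in WT and 70.9% in KO were under 24 nt, and 16.3% and 9.07% were over 32 nt. Reads of 29 to 31 nt were 4.82% to 7.34% of members in these libraries.

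**Figure D2:**
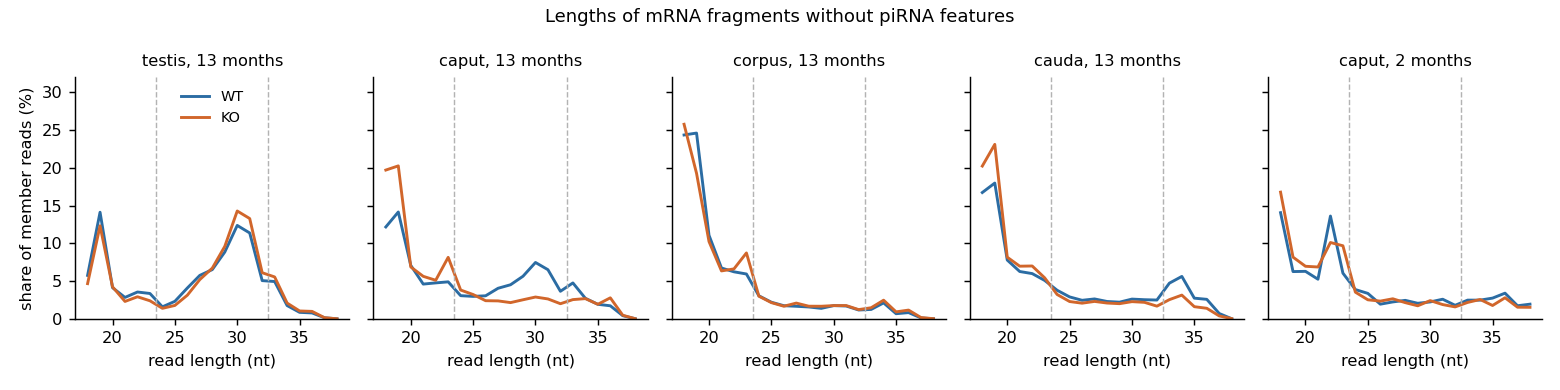
Share of member reads, in percent, at each length from 18 to 38 nt, with 1 panel per pair and WT in blue and KO in orange. Reads over 38 nt, which reach 47 nt in young caput and 39 nt in the 13-month libraries, are not shown. Dashed lines mark the limits of the 24 to 32 nt window, inside which T-first reads are no members; WT caput at 13 months shows the 29 to 31 nt range (19.6% of members) that testis has (32.6%), while KO caput has 8.03% there.

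The base at position 10, which the rule did not use, was also most often A in testis and WT caput. Among members of 24 to 32 nt, position 10 was A in 39.5% of WT and 39.2% of KO testis reads, 33.9% in WT caput and 28.7% in KO caput, and 25.9% to 29.05% in the other libraries. An A at position 10 is known as a feature of piRNAs made by the cutting cycle between paired transcripts. In testis 33.0% of WT and 33.3% of KO members of this length lay 1 to 3 nt inside a T-first read of the same library. That share was 23.3% in WT caput, 18.1% in KO caput, and 6.42% to 15.3% elsewhere. The T-first reads it is measured against are those that the rule sets apart, so this share is not independent of the rule. This share can also depend on how many T-first mRNA reads a library holds (1.57% of classified reads in WT and 0.0444% in KO caput), and their part in it was not tested.

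Most members lay on the coding strand, and strand went with match quality. Between 63.5% and 74.4% of member reads were on the plus strand. Between 40.9% and 59.0% matched their entry without a mismatch. Among the perfect matches 4.16% to 14.1% were on the minus strand, whereas among the reads with a mismatch 44.9% to 59.7% were. KO and WT caput at 13 months had 72.3% and 73.9% on the plus strand.

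A large part of the reads labelled mRNA shared sequence with other RNAs. Reads ending in CCA were 23.7% of members in WT and 19.95% in KO corpus, and 3.91% to 9.33% in the other 8 libraries. Those of them that shared no 16 nt with another class were 11.6% and 10.9% in corpus and 1.86% to 7.41% elsewhere. In corpus all reads ending in CCA made up 36.2% and 31.9% of the reads of 18 to 20 nt. Reads sharing 16 nt with rRNA were 2.89% in WT testis and 22.1% in KO cauda, the lowest and the highest value. Reads sharing 16 nt with piRNA were 18.5% in WT and 19.6% in KO testis, 10.1% in WT caput and 3.77% in KO caput. Between 53.5% and 70.7% of member reads showed none of these features.

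The 13-month caput ratio depended on the kind of read. It was -2.65 on the log2 scale for members sharing 16 nt with piRNA reads, -0.89 for those ending in CCA, -0.40 for those sharing with tRNA and -0.24 for those sharing with rRNA. The rRNA value rested on 1 sequence of 19 nt, listed as mRNA in KO caput (8927 reads) but as rRNA in WT caput (21338 reads), and without it the ratio was -1.10. In cauda the reads sharing with rRNA had a log2 ratio of 1.36, the CCA reads 1.19, and the remaining strict reads, defined next, 0.35. Reads sharing with rRNA were 22.1% of members in KO and 13.7% in WT cauda. The same 19-nt sequence was listed as mRNA in KO cauda (11076 reads) and as rRNA in WT cauda (2500 reads). Without it the KO cauda share was 15.99%, the rRNA ratio 0.78 and the ratio of all members in cauda 0.56. These values without 1 sequence were added after seeing the data.

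**Figure D3:**
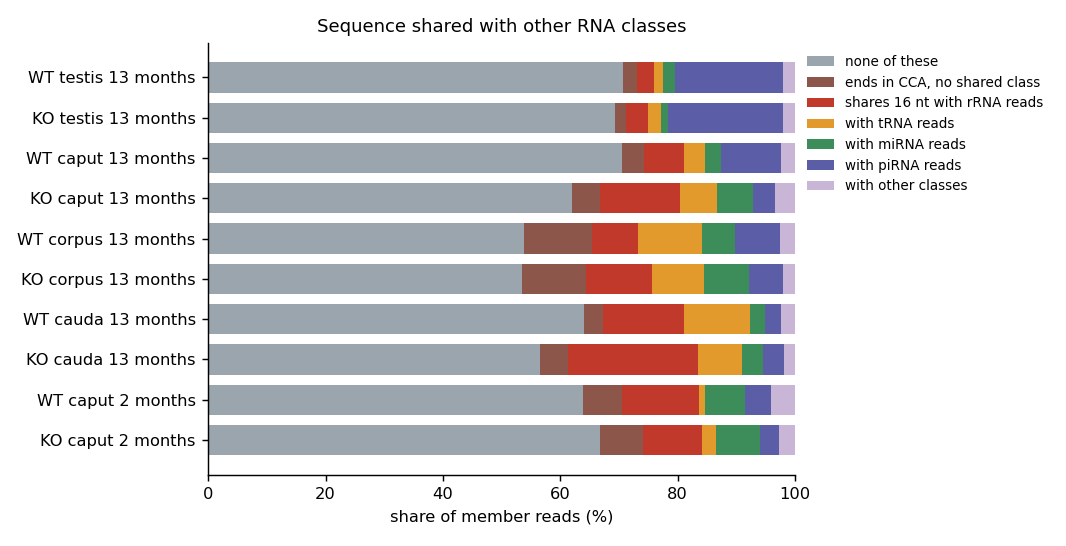
Stacked share of member reads, in percent, for each of the 10 libraries, divided into reads that share 16 nt with rRNA, tRNA, miRNA, piRNA or other classes, reads that end in CCA and share none, and reads with none of these features. Corpus has the widest CCA band (11.6% and 10.9%), KO cauda the widest rRNA band (22.1%), and both testis libraries the widest piRNA band (18.5% and 19.6%).

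Entries were not stable across libraries. Of the distinct sequences, 76652 (8.68%) were members in more than 1 library, and 51.8% of those kept the same entry. A total of 11322 member sequences were listed under another class in some library, 5385 of them as rRNA. Genes are therefore described from strict reads: plus strand, no mismatch, no CCA end, no 16 nt shared with another class, and 1 gene per sequence in all libraries. These were 25.5% to 41.2% of member reads. Their 13-month caput log2 ratio was -1.31.

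The targeted gene was looked at first. Strict Gpx5 fragments numbered 685 in WT caput at 13 months and 22 in KO caput, or 49.5 and 1.20 reads per 1000000 classified reads (RPM). The log2 KO over WT ratio was -5.37 (-6.05 to -4.76). Cauda listed 3 WT reads and 1 KO read, and testis, corpus and young caput had 0, so among the small RNA libraries only the 13-month caput pair shows the genotype. The Gpx5 transcript was at 8474 RPKM in WT and 918 in KO caput, a difference of -3.21 in log2(RPKM + 1). The library labelled KO thus kept a Gpx5 transcript that is still abundant.

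Gpx5 fragments were many and each was rare. Including reads with mismatches, 749 WT caput reads fell on 496 distinct sequences, none on the minus strand, and 93.2% had no mismatch. The most abundant sequence held 2.94% of them, and 51.3% of the reads were seen once. Their lengths were spread out, with 26.6% under 24 nt, 49.9% at 24 to 32 nt and 23.5% over 32 nt. A further 59 Gpx5 reads had both piRNA features in WT caput and 2 in KO caput.

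Overlapping Gpx5 reads joined into 25 stretches that total 1498 bases. The stretches were built from 480 distinct perfect reads (753 reads, T-first ones included) that overlap by at least 12 nt. The longest was 171 bases with 140 distinct sequences and 199 reads, and the next was 167 bases with 92 distinct sequences and 217 reads. In KO caput 22 of 24 such reads could be placed on them, 11 of these on the longest stretch and 5 on the next. Depth in WT was uneven: up to 196 reads covered 1 position of the 167-base stretch and up to 108 one of the longest. The reads thus came from many places in the transcript but piled up at some, and their order along it was not analysed here.

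Genes were compared by a fixed rule. A gene was called in a pair if it had at least 2 RPM in 1 library and differed at least 2-fold with an exact 95% interval that excluded 1. With strict reads in 13-month caput, 235 of 326 genes were lower in KO (72.1%) and 2 were higher (0.613%), with a median log2 ratio of -1.86 over the genes with reads in both libraries and -2.19 with 23 genes at 0 in KO held at 3 counts. With all member reads, 704 of 941 genes were lower (74.8%) and 54 higher (5.74%), with medians of -2.96 and -3.32. Passing the minimum in only 1 library favours genes that differ, so these counts describe the genes that passed and no others. Both higher entries, with 140 and 455 and with 2 and 46 reads, had no gene symbol in the tables used and are not named here.

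Genes with abundant testis fragments made up most of the lower ones. Of the 326 genes, 191 had at least 2 RPM of strict reads in a testis library, and 177 of these were lower in KO caput (92.7%) and 1 was higher. Their summed strict reads were at 1253 RPM in WT and 172 in KO caput, with a median log2 ratio of -4.22 where 23 genes with 0 KO reads stand at their bound of 3 counts. Of 45 genes with no testis read, 23 were lower (51.1%) and none was higher, at 334 RPM in WT and 129.5 in KO, with a median of -1.04. Of the 90 genes between, 35 were lower (38.9%) and 1 higher, with a median of -0.85. The grouping was chosen after seeing the data.

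Nemp1 led this group. Its strict fragments were at 288 RPM in WT and 315 in KO testis, 71.0 in WT caput and 0.871 in KO caput, 2.41 and 2.99 in corpus and 1.22 and 1.57 in cauda. The log2 ratio in caput was -6.35 (-7.16 to -5.64), and in testis it was 0.13.

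Other leading genes of the group had the same order, except Vmp1, which was at 43.1 RPM in WT and 40.6 in KO caput. Tbl2, a gene of the WD-repeat family, was at 43.6 RPM in WT and 0.599 in KO caput, and at 184 and 237 in testis. Asb1, which encodes an ankyrin repeat protein with a SOCS box, was at 35.6 and 0.381 in caput, with a log2 ratio of -6.54. Gm5878 was at 36.7 and 0.218 RPM, and 1700006A11Rik at 27.9 and 0.436. Ago2, which encodes the Argonaute that cuts miRNA targets, had 266 reads in WT and 2 in KO caput, with a log2 ratio of -7.46 (-10.5 to -5.60). Piwil2 had 94 reads in WT caput and 0 in KO, where 3 counts would be 0.163 RPM.

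Reads of 29 to 31 nt were a larger part of the fragments of this group in WT caput than in KO caput. Of the strict reads of the 191 genes, 42.9% in WT and 48.7% in KO testis were 29 to 31 nt long, 39.2% in WT caput and 12.6% in KO caput. In the 45 genes with no testis read it was 14.6% for WT and 13.8% for KO caput. Of the 3160 KO caput reads of the 191 genes, 746 were of Vmp1, and 99.1% of its reads there were under 24 nt. Among 24 to 32 nt members of the 191 genes, position 10 was A in 44.4% of WT testis, 40.8% of WT caput and 24.2% of KO caput reads. That share was 33.2% and 30.6% in WT and KO corpus, and 42.8% and 25.4% in WT and KO cauda, so WT cauda lay above WT caput. The T-first reads of the same genes, which are no members, were at 17208 RPM in WT testis, 4415 in WT caput and 48.9 in KO caput. In corpus 5 of 24 genes of this group were higher and 0 lower, and in cauda 8 of 30 were higher and 2 lower, near the shares of all genes called higher there (28.6% and 25%).

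Fragments of secreted epididymal proteins were found mainly in caput and cauda. Strict reads of a list of 46 such genes summed to 142 RPM in WT and 61.5 in KO for 13-month caput, 85.6 and 58.3 for cauda, 8.64 and 12.4 for corpus, and 0.7004 and 1.12 for testis. Without Gpx5 the caput sums were 92.8 and 60.3 RPM. In caput 11 of the genes could be compared, 5 were lower (Adam7, Gpx5, Mfge8, Rnase10 and Spag11b) and none was higher, where 72.1% of all genes were lower. Their median log2 ratio was -0.77 against -1.86 over all genes. In cauda 7 could be compared, 1 (Clu) was higher and none lower, where 25% of all genes were higher. By all member reads none of 7 was called there.

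Adam7, an ADAM-family gene whose membrane protein is passed to sperm, had 323 strict reads in WT and 185 in KO caput, or 23.4 and 10.1 RPM. Its log2 ratio was -1.21 (-1.48 to -0.95). Spag11b had 211 and 100 reads (log2 -1.49), and the beta-defensin gene Defb20 had 118 and 62 (log2 -1.34). Defb20 was the single defensin gene that could be compared. Lcn5, in contrast, had 170 strict reads in WT and 293 in KO caput, or 12.3 and 15.96 RPM. Its log2 ratio of 0.38 (0.10 to 0.66) is under the 2-fold limit. Among perfect Lcn5 reads, T-first ones included, 1 stretch of 42 bases had 237 reads in WT and 220 in KO caput. Another of 72 bases went the other way, with 34 and 119. The 42-base stretch alone exceeds the 170 strict reads of WT, so the rise describes strict reads only. Clu, the gene of the chaperone clusterin, had 166 and 148 strict reads (log2 -0.58). When libraries were scaled by TMM size factors the median caput ratio moved by 0.85 on the log2 scale, Adam7, Spag11b and Defb20 stood at -0.37, -0.25 and -0.43 by all member reads and were no longer called, and Gpx5 stood at -4.58.

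The cauda had its own leading gene. Crisp1 had 871 strict reads in WT and 342 in KO cauda, or 53.0 and 29.9 RPM. In corpus it had 59 and 32 reads (2.03 and 3.83 RPM) and in caput 10 and 10 (0.723 and 0.545 RPM). Its cauda log2 ratio was -0.83 (-1.01 to -0.65), under the 2-fold limit. By all member reads under TMM it was -1.36 and called. Cd52 had 153 and 98 reads in cauda (log2 -0.12), and Gpx3, a secreted glutathione peroxidase gene, had 94 and 53. Clu rose from 17 to 35 reads, a log2 ratio of 1.56 (0.69 to 2.49). Secretory fragments were long in cauda, with 50.9% of WT and 41.5% of KO reads over 32 nt, against 20.5% and 21.2% in caput. Crisp1 carried much of this: without it the cauda shares were 36.8% and 23.6%. Over all strict reads 25.7% in WT and 15.5% in KO cauda were over 32 nt, and 13.95% and 15.4% in caput.

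**Figure D4:**
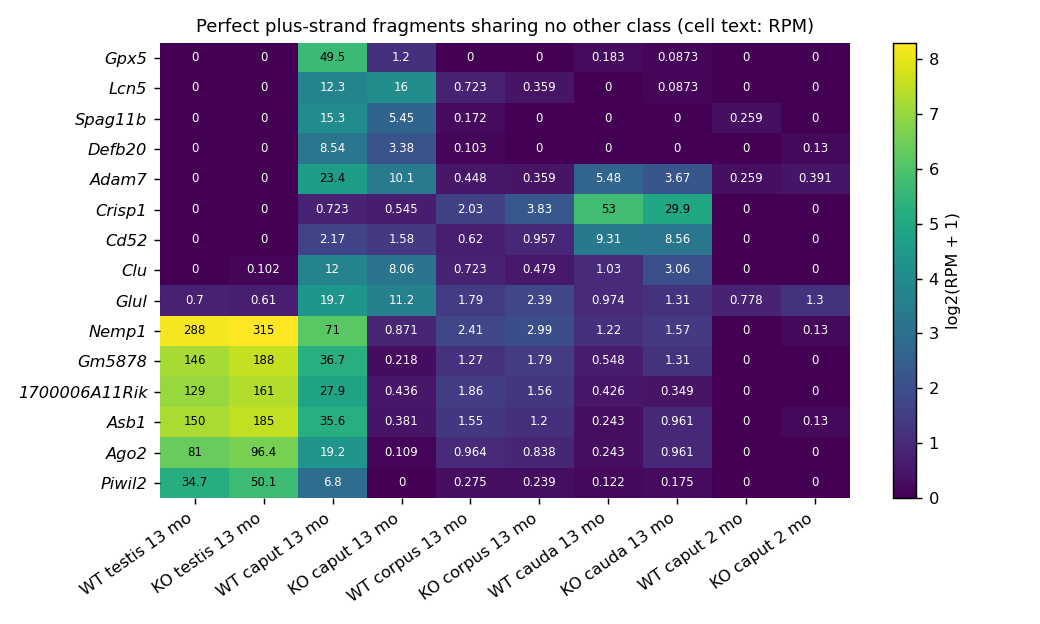
Strict fragment RPM (numbers and colour, log scale) for 15 genes in the 10 libraries. Gpx5 is seen in WT caput at 13 months (49.5) with 1.20 in KO caput; Nemp1, Gm5878, 1700006A11Rik, Asb1, Ago2 and Piwil2 are seen in both testis libraries and in WT caput, and Crisp1 in cauda (53.0 and 29.9).

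The transcriptome of the same tissue was set beside the fragments. Of 15061 genes with at least 1 RPKM in caput, 3345 were lower in KO by at least 2-fold in RPKM + 1 (22.2%) and 414 were higher (2.75%), with a median of 0.05. Of these, 187 also had strict fragments at the minimum. Fragments of 145 and transcripts of 33 were lower in KO, and all 33 were lower in both. Across these 187 genes the log2 differences of fragments and transcripts had a Spearman rho of 0.74 and Pearson's r of 0.66. Within the groups of genes set by testis reads the rho of the differences was 0.52 (116 genes), 0.08 (46 genes) and 0.18 (25 genes with no testis read), and by all member reads it was 0.50 over 375 genes. Fragment and transcript levels had a rho of -0.09 in WT and 0.79 in KO over the 187 genes, and in WT -0.23, 0.27 and 0.47 within the 3 groups. Genes are not independent replicates, and all points share the same libraries.

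With fragments scaled to classified reads, the direction differed between the groups of genes. Of 116 genes with abundant testis fragments, fragments of 111 and transcripts of 31 were lower in KO, with median log2 ratios of -4.21 for fragments and -0.24 for transcripts. Of 25 genes with no testis read, fragments of 13 were lower while transcripts of 18 were higher, 9 genes being in both counts, with medians of -1.04 and 1.17. Ago2 is an example of the first kind: its transcript was at 4.82 RPKM in WT and 4.67 in KO while its fragments had 266 and 2 reads. Ipmk, an inositol phosphate kinase gene, was at 4.37 and 4.70 RPKM with 297 and 6 fragment reads. Adam7 is an example of the second kind, at 2383 RPKM in WT and 6373 in KO. Spag11b had 3007 and 7241 RPKM and Defb20 2506 and 6589. Under TMM scaling, which moved the median caput ratio by 0.85, Adam7, Spag11b and Defb20 were no longer called lower by all member reads. Over the list of secreted epididymal proteins, transcripts of 22 of 42 genes were higher in KO caput and 2 (Gpx5 and Cst13) were lower. Over all genes 2.75% were higher and 22.2% lower. The list summed to 31659 RPKM in WT and 52342 in KO, with a median log2 difference of 1.06. A rise was not particular to it: ribosomal protein genes had a median of 0.84, with 16 of 86 higher and 2 lower. Lists of spermatid, Leydig and Sertoli cell genes, described below, went the other way.

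**Figure D5:**
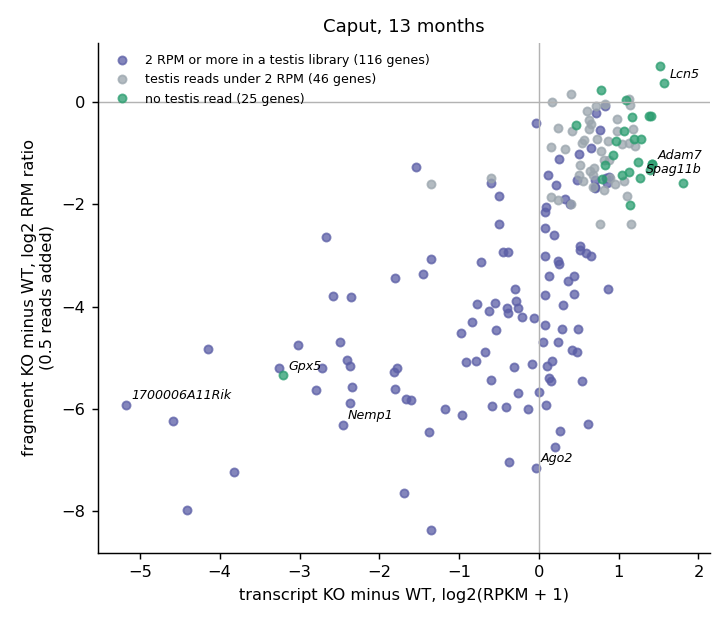
KO minus WT difference of 187 genes in 13-month caput, in log2(RPKM + 1) for the transcript (horizontal axis) and in log2 RPM of strict fragments (vertical axis, 0.5 reads added), coloured by the level of fragments in testis. The 116 genes with testis fragments lie low on the vertical axis (median -4.21), and the 25 genes with no testis read lie to the right (transcript median 1.17).

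Markers of other cells were checked, because caput and cauda were washed of sperm and whole tissue mixes cell types. Beside the list counts that follow, 22.2% of all 15061 genes with at least 1 RPKM were lower in the KO caput transcriptome. All 35 genes of a spermatid and sperm list that have a transcript in the table were lower there. They summed to 16281 RPKM in WT and 272 in KO, and none was at 0. Their strict fragments were few, at 3.62 RPM in WT and 2.29 in KO caput, and 11.4 and 14.1 in testis. They were at 7.33 and 11.1 RPM in corpus and 7.49 and 13.0 in cauda, where the KO over WT ratio was 1.52 (1.18 to 1.95) and 1.74 (1.36 to 2.23). Tnp2, a transition protein gene of spermatids, was at 1742 and 19.6 RPKM with 4 and 8 fragment reads. In the transcriptome 18 of 20 genes of the piRNA pathway were lower in KO, and their strict fragments were at 9.62 RPM in WT and 0.109 in KO caput. Piwil2 gave 94 of these 133 WT reads, and without it the list was at 2.82 and 0.109 RPM. By all member reads the list was at 6.37 and 0.762 RPM. Transcripts of somatic testis cells were lower as well: 7 of 8 Leydig cell genes (371 RPKM summed in WT, 11.9 in KO, none at 0) and 5 of 7 Sertoli cell genes (61.1 and 24.1, with 2 of the 9 in the table at 0 in KO). What part germ cells, sperm or somatic testis cells in the WT caput take in the fragment difference was not tested.

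Fragments of connective tissue and muscle were highest in cauda. Strict reads of 12 smooth muscle genes were at 15.8 RPM in WT and 15.5 in KO cauda and at 4.41 and 4.14 in caput. Of 12 collagen and stroma genes, 6 could be compared in cauda and Col6a2, which encodes a collagen VI chain, was higher with 20 and 36 reads, where 25% of all genes were higher. Leukocyte genes were at 5.36 and 8.03 RPM in cauda and 5.23 and 4.07 in corpus. Genes of Leydig cells, Sertoli cells and seminal vesicle were at or below 1.17 RPM of strict reads in every library. By all member reads the Leydig list was at 3.11 RPM in WT and 0.0545 in KO caput. A single gene of it, Hsd17b3, which encodes an enzyme of testosterone synthesis, was called lower, where 74.8% of all genes were lower.

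Housekeeping genes gave smaller ratios in caput. Of 20 cytoskeletal and housekeeping genes, 6 could be compared and none was called by strict reads, where 72.1% of all genes were lower. Their median log2 ratio was -0.65. Tmsb4x, an actin-binding peptide gene, had 117 and 149 reads (8.46 and 8.11 RPM). Gsn, the gelsolin gene, had 119 and 155 (8.61 and 8.44 RPM). Vmp1, an autophagy gene that overlaps the miR-21 locus, had 596 and 746 reads (43.1 and 40.6 RPM), of which 1 short sequence held 69.6% in WT. Among 12 translation factor genes 3 could be compared, and Eif4a2 and Pabpc1 were lower, where 72.1% of all genes were lower.

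The other 13-month pairs had medians nearer 0. In testis 90 of 977 genes were higher in KO by strict reads (9.21%) and 26 lower (2.66%), with a median log2 ratio of 0.23. In corpus 14 of 49 were higher (28.6%) and 0 lower, with a median of 0.41. In cauda 35 of 140 were higher (25%) and 5 lower (3.57%), with a median of 0.47. Of the 5 lower ones, 4 were entries with no gene symbol and 1 was Gpat4, a gene of glycerolipid synthesis, with 45 and 14 reads. Young caput had 8 genes that could be compared, 6 of them higher (75%), with a median of 2.51 or, with 1 gene at 0 in WT held at 3 counts, 2.26, among them Vmp1 with 1 and 17 reads and Prnp, the prion protein gene, with 0 and 24. These genes were named after their values were seen, and the other 4 had no gene symbol.

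With all member reads, the counts in these pairs were larger and went both ways. In testis 420 genes were higher (15.7%) and 297 lower (11.1%), in corpus 123 (33.3%) and 95 (25.7%), in cauda 171 (41.9%) and 48 (11.8%), and in young caput 28 (41.2%) and 23 (33.8%). The split moved by over 10 percentage points with scaling in 3 pairs. Under TMM it became 94 higher and 167 lower in corpus (36.0% and 64.0% of calls against 56.4% and 43.6%), 117 and 73 in cauda (61.6% higher against 78.1%), and 35 and 16 in young caput (68.6% against 54.9%). The median ratio shifted by -0.88, -0.50 and 0.84 in these pairs. In testis it became 363 and 331 (52.3% higher against 58.6%) and, under median of ratios size factors, 557 and 259 (68.3%), and in 13-month caput 85 and 581 (12.8% higher against 7.12%).

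The largest ratios among all member reads rested on single sequences. Pon2, a paraoxonase gene, had 0 reads in WT and 468 in KO testis and 1 and 408 in corpus, and 98.8% of its reads were 1 sequence that ends in CCA. Akr1b8, an aldo-keto reductase gene, had 0 and 1007 reads in testis, 99.8% of its reads over all libraries being 1 sequence on the minus strand. Fth1, the ferritin heavy chain gene, was higher in KO testis with 38 and 110 strict reads, and 1 sequence of it had 2 and 87. With the most abundant sequence left out, the log2 ratio of all Fth1 member reads was -0.11. Piwil2 had 318 reads in WT and 66 in KO testis by its listed entry, but 297 and 493 when each sequence was held to 1 gene. Of the 20 most abundant member sequences in each library, 16 to 20 were on the minus strand, ended in CCA or shared 16 nt with another class.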

How the data were processed

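The deposited small RNA tables give every different sequence once with its read count, matched by the authors, per the file headers, to database entries with up to 2 mismatches. The other deposited column used, per the file headers, is a sequence number, which a spreadsheet had turned into dates on part of the lines of the 2-month files, and the counts were read back from them. RPKM values per transcript were deposited by the authors, from GFOLD 1.1.3 per the file header. TopHat2, Bowtie 0.12.7 and mm9 are named, without a role, per the submitters' processing notes. Adapter trimming and the rule for ties between entries are not given in the sources used here.

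Minus-strand sequences were turned back to the read. Symbols, chromosomes and miRNA sequences came from RefSeq (GRCm38.p6). Entries without a symbol there stayed unnamed and entered the counts of genes. A read shared a class if it had a 16-mer found in at least 20 reads of that class. RPM is per 1000000 classified reads, intervals are exact at 95%, a value of 0 has a floor of 3 counts, and transcript differences use log2(RPKM + 1). No test of genotype was run because each group is 1 library. The exact interval in the gene calls compares read counts with reads as the units, so it covers counting error alone. TMM came from edgeR 4.0.16. Scripts ran in Python 3.11.15 with scipy 1.17.1 and R 4.3.3, and the calling step was tested on simulated data. Apart from set fold changes, these data held counting error only. They cannot show errors that come from differences between libraries or from changes of entry or class. 0 columns of other samples were used.

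Genes were named by a rule (Gpx5, the 5 genes with most reads in each library, the 5 genes furthest up and down per pair at a minimum of 10 RPM, and up to 4 members of each list). Tbl2, Asb1, Ago2, Ipmk, Vmp1, Gsn and Ap1s2, and other leaders by strict reads, were chosen after their values were seen. Members and lists were chosen with earlier results of these data known. Alternatives covered the base, mismatches, strand, lengths, single reads, abundant sequences, minimum RPM and scaling, and the strict reads and 1 gene per sequence were added after seeing the data.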

Additional observations from a re-analysis of the deposited data

Results flagged for a closer look

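The 13-month caput pair was opposite in direction to the other 4 pairs. Its log2 KO over WT ratio of the member share was -1.23, while testis had 0.17, corpus 0.16, cauda 0.67 and young caput 0.15. Each pair is 1 library against 1, and the difference between pairs was not tested. Transcripts of all 35 listed spermatid and sperm genes in the table were also lower in the KO caput. So were those of 7 of 8 Leydig cell genes, where 22.2% of all genes were lower. The part of these lists in this result was not tested.

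Most reads of ribosomal protein mRNAs lay outside the members, because the files list them in the rRNA class. In the 13-month libraries 186 to 2554 reads were listed there, against 2 to 56 in the mRNA class. Those in the rRNA class were at 294 RPM in WT and 259.7 in KO testis, and at 136 in WT and 42.0 in KO for 13-month caput. Corpus had 18.9 and 22.3, cauda 31.6 and 37.5, and young caput 2.07 and 1.82. All 10 values are above the floor of 3 counts, and the mRNA class of the files therefore misses most reads of a family of abundant mRNAs.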

How the results depend on the processing

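Each library is a pool without replicates, the young caput pair is shallow, and gene names depend on how the entry was chosen. No paired analysis was possible because each group is 1 library. The ratio of member shares below is log2 KO over WT, listed as testis, 13-month caput, corpus, cauda and, where it moved, young caput, and the cause of a change was not tested. With mRNA class reads as the base it was 0.14, 0.80, -0.081, 0.019 and -0.013, so that caput, corpus and young caput changed sign. With miRNA reads as the base it was 0.15, -1.71, 0.23 and 0.57. Without mismatches it was 0.23, -1.19, 0.29, 0.73 and 0.49. Without the 10 most abundant sequences it was 0.16, -1.39, 0.19 and 0.55. Without sequences read once it was 0.22, -1.04, 0.020, 0.85 and 0.45. On the plus strand it was 0.23 in testis, -1.26 in caput and 0.14 in corpus. With a 25 to 31 nt window it was 0.15, -1.33 and 0.18 in these 3. Members under 24 nt gave -0.054, a change of sign in testis, then -0.76, 0.12, 0.92 and 0.34. Members of 24 to 32 nt gave 0.26, -1.998, 0.22, 0.42 and 0.036. Strict reads, an alternative added after seeing the data like the next 2, gave 0.20, -1.31, 0.23, 0.35 and 0.52. Without CCA ends or shared classes it was 0.14, -1.42, 0.14, 0.49 and 0.22. Without sequences listed under another class in some library it was 0.15, -1.33, 0.099 and 0.49. Distinct sequences at the same depth gave 0.14 in testis, -1.42 in caput and 0.47 in cauda. The caput ratio stayed below 0 under every alternative but the mRNA base.

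Counts of genes moved more. The main counts were 420 higher in testis, 704 lower in caput, and 123, 171 and 28 higher in corpus, cauda and young caput. At 10 RPM or more they were 82, 114, 42, 52 and 8. With no minimum they were 1055, 3884, 655 and 740 in the 13-month pairs. Without mismatches they were 189, 321, 32, 59 and 13. Without each gene's most abundant sequence they were 132 in testis, 55 in corpus, 88 in cauda and 17 in young caput. On the plus strand they were 466 in caput, 61 in corpus, 92 in cauda and 13 in young caput. By strict reads they were 90, 235, 14, 35 and 6. With 1 gene per sequence they were 201 in testis and 72 in corpus. Among single genes, Fth1 in testis went to -0.11 without its most abundant sequence, and Piwil2 in testis went from -2.47 to 0.53 by strict reads and to 0.44 with 1 gene per sequence. Of the other single values 201 kept their direction and size, 199 moved, 9 lost a call and 2 gained one.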
